A study of Mus musculus with 8 samples.

Results

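Integrins are the receptors that hold cells to the matrix around them. Each is a pair of 1 alpha and 1 beta chain, and the pair decides which ligand is bound: collagens, laminins, proteins with an arginine-glycine-aspartate (RGD) site such as fibronectin, or counter-receptors on other cells. Inside the cell, talins and kindlins bind the beta tail and switch the receptor on, and the complex of ILK, PINCH and parvin, the kinase FAK and the scaffold paxillin join it to actin and to signalling. In lung capillaries these receptors anchor the endothelium to a basement membrane of laminins and collagen IV that it shares with the alveolar epithelium. The genes described here are 25 integrin subunits (17 alpha and 8 beta) and 9 adhesion linkers, chosen by name as mouse symbols and found by gene identifier. All 34 were present among the 31610 genes of the count table.

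The libraries are RNA of lung endothelial cells, collected by fluorescence-activated sorting from C57BL/6J mice. In 4 libraries the mice had received a control adeno-associated virus (AAV), a gene delivery vector, and in 4 they had received an nANGPTL4 AAV, whose name the labels do not explain further; ANGPTL4 is a secreted protein known as an inhibitor of lipoprotein lipase. The 4 libraries of a group were independent biological replicates, and both groups carried a vector. The titles of the nANGPTL4 AAV libraries read NT Treated, an abbreviation left unexplained, so the group rests on the treatment field. The promoter and dose of the vectors, the time after treatment, and the age and sex of the mice are not stated in the labels.

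Total counts were 83183122 to 114337333 per library. The sort was checked by 10 endothelial markers, whose summed level was 17366 to 18071 CPM (counts scaled to a common library total) in control AAV and 16698 to 17349 CPM in nANGPTL4 AAV. Of these 10, 9 had negative log2 fold changes, against 62.5% of genes with a mean log2 CPM over 3. The median was -0.05, and -0.01 with scaling by library size only. At an unadjusted edgeR p under 0.05, 2 were lower and 0 higher, against 18.2% and 4.26% of those genes. In 3 every nANGPTL4 AAV library was lower, against 12.6%. DESeq2 called 1, Flt1, as lower (adjusted p = 0.0127), and edgeR called 0. The 4 pan-leukocyte markers summed to 5.06 to 7.28 and 6.03 to 11.2 CPM. The 15 lung epithelial markers summed to 350 to 510 CPM in control AAV and 488 to 602 CPM in nANGPTL4 AAV, of which Hopx alone made up 251 ± 25.8 and 276 ± 13.4 CPM. Of these 13 of 15 had positive log2 fold changes and 1 was called by edgeR, the airway secretory gene Scgb3a2 (0.328 ± 0.0513 and 0.804 ± 0.106 CPM, adjusted p = 0.0369). The erythroid markers summed to 2.79 to 5.55 and 4.20 to 12.3 CPM, and all 5 that could be tested were higher at an unadjusted p under 0.05. The part of this RNA in the results was not tested. The CPM values use TMM scaling, whose factors were 0.969 to 0.994 in the control AAV libraries and 1.01 to 1.02 in the nANGPTL4 AAV libraries. These are whole-sample RNA levels, in which fewer cells of a type and less RNA per cell cannot be told apart.

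To compare genes with each other, CPM was divided by the kilobases of annotated exon. On this scale Itgb1, the beta chain shared by most matrix receptors, stood first among the members, at 261 ± 11.5 CPM per kb in control AAV and 237 ± 6.57 in nANGPTL4 AAV (SD, n = 4 each, here and throughout). The laminin receptor chain Itga3 followed at 106 ± 6.42 and 109 ± 8.96 CPM per kb. Then came a group of near neighbours with means over the 8 libraries of 68.7 CPM per kb for Itga6, 62.6 for the vitronectin receptor chain Itgb5, 61.2 for the kindlin Fermt2, 59.4 for the talin Tln1, 53.2 for Itga1, 52.7 for Itga5 and 49.6 for Pxn. In control AAV Itgb5 (60.5 ± 6.12 CPM per kb), Fermt2 (61.9 ± 3.90), Tln1 (60.5 ± 2.69) and Itga5 (59.3 ± 6.00) differed from each other by less than the SD of Itgb5. Itga6 stood above them in control AAV, at 75.1 ± 8.46 CPM per kb, and within the SD of Itgb5 in nANGPTL4 AAV, where Itga6 was at 62.2 ± 3.46 and Itgb5 at 64.8 ± 13.3. In all, 24 of the 34 members had a mean over 1 CPM per kb and 10 did not. The order of single genes depends on the length used: with the longest transcript in place of all exons, Itga6 took rank 2, Itga3 rank 3 and Pxn rank 4.

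**Figure D1:**
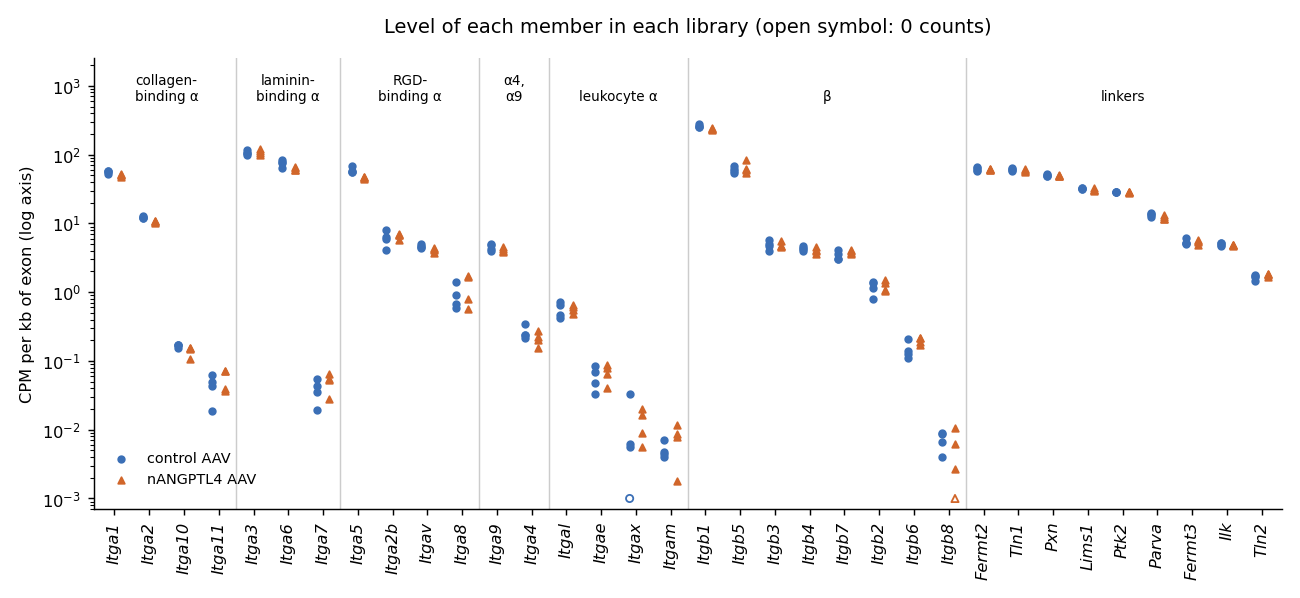
Level of each of the 34 members in CPM per kb of exon on a log axis, with 1 symbol per library (circles, control AAV; triangles, nANGPTL4 AAV) and genes grouped by role. Itgb1 is highest at 261 and 237 CPM per kb, and Itgam, Itgax and Itgb8 lie near 0.01 or below.

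The alpha chains were concentrated in few genes. Itga3, Itga6, Itga1 and Itga5 together held 91.0 ± 0.418% of the alpha chain level per kb in control AAV and 90.6 ± 0.183% in nANGPTL4 AAV. Itga3 alone held 32.6 ± 2.37% and 37.0 ± 2.70%, Itga6 23.0 ± 2.50% and 21.0 ± 1.35%, and Itga1 17.2 ± 0.768% and 16.99 ± 0.767%. Itga5, the fibronectin receptor chain, held 17.2%, 20.4%, 17.1% and 17.8% of the level in the control AAV libraries and 15.7%, 15.5%, 14.8% and 16.4% of it in the nANGPTL4 AAV libraries, in the order of their numbers. Of these 4 chains, Itga5 was the only 1 whose shares did not overlap between the groups, with a difference of means of -2.52 percentage points. Itga2 held 3.76 ± 0.140% and 3.598 ± 0.0886%. These shares depend on the length used: per kb of the longest transcript Itga6 held the largest share, at 32.7% and 30.3%, and Itga5 held 13.8% and 12.0%.

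**Figure D2:**
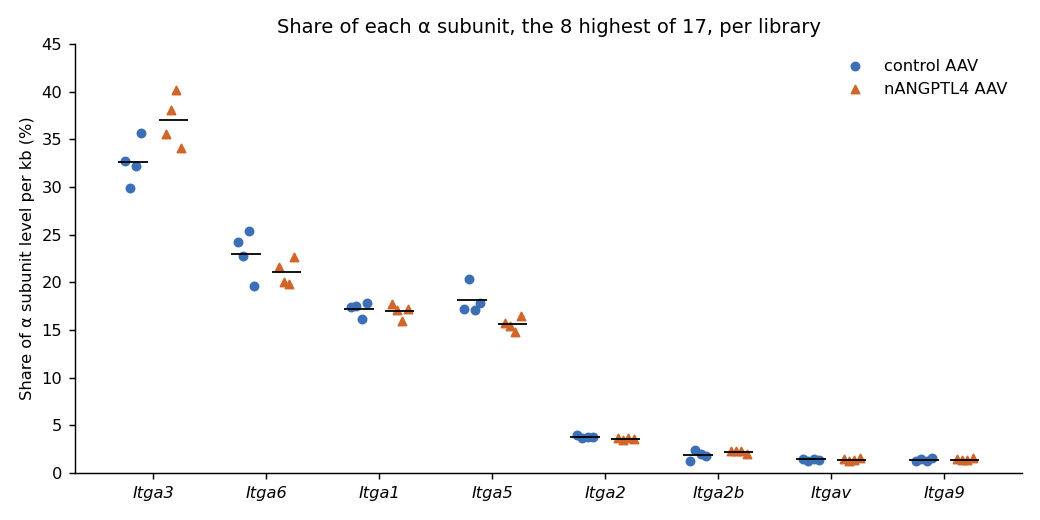
Share of the alpha chain level per kb held by the 8 highest of 17 alpha genes, in percent, with 1 symbol per library and a line at the group mean. Itga5 lies at 17.1% to 20.4% in control AAV and at 14.8% to 16.4% in nANGPTL4 AAV.

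Set against its partners, Itgb1 was at 0.815 ± 0.0290 of the summed level per kb of the 12 alpha chains that can pair with it in control AAV, and at 0.821 ± 0.0281 in nANGPTL4 AAV. The ratio ranged from 0.788 to 0.858 over the 8 libraries and the groups overlapped. Its size depends on the length used: per kb of the longest transcript it was 0.593 ± 0.0218 in control AAV and 0.605 ± 0.0151 in nANGPTL4 AAV, again with overlap. The summed level of those partners was 315, 326, 322 and 317 CPM per kb in control AAV libraries 1 to 4 and 288, 289, 292 and 286 CPM per kb in nANGPTL4 AAV libraries 1 to 4. With TMM scaling every nANGPTL4 AAV library was thus below every control AAV library for both the partners' sum and Itgb1, while their ratio was not separated. With library size only the partners' sum was still separated, at 305 to 322 and 291 to 295 CPM per kb, and Itgb1 was not. The ratio of Itga5 to Itgb1 per kb of exon was 0.227 ± 0.0142 in control AAV and 0.195 ± 0.00411 in nANGPTL4 AAV, without overlap. That of Itga6 to Itgb1 was 0.288 ± 0.0332 and 0.262 ± 0.00792, with overlap.

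The groups were compared with edgeR's quasi-likelihood test over 18874 genes, with Benjamini-Hochberg adjustment over all of them and a gene called at an adjusted p under 0.05. Of the 34 members 31 passed the filter on low counts, and 0 of the 31 were called. Of all genes tested 0.138% were called, 0.0901% as lower and 0.0477% as higher in nANGPTL4 AAV. At an unadjusted p under 0.05, 7 members were lower in nANGPTL4 AAV and 0 were higher, against 10.3% and 7.35% of all genes tested (17.6% in either direction). These 7 were the alpha chains Itga5, Itga2, Itga6, Itga1 and Itgav, the beta chain Itgb1 and the linker Parva. All 7 had a mean log2 CPM over 3, as 22 members had. With TMM scaling 18.2% of genes at that level were lower and 4.26% higher at the same p, and 7 of 22 is 31.8%. In 6 members, Itga1, Itga2, Itga5, Itga10, Itgb1 and Ptk2, every nANGPTL4 AAV library was below every control AAV library, and in 0 every one was above, against 7.00% and 3.89% of all genes tested. Among the 22 members with a mean log2 CPM over 3 these were 5 and 0, against 12.6% and 2.21% of genes at that level. This separation depends on the scaling: with library size only 2 members, Itga2 and Itga5, were lower in every library and 0 higher, against 3.67% and 6.66% of all genes tested and 6.45% and 6.14% of genes at that level. With library size only, or with upper quartile scaling, in place of TMM, 4 members were lower (Itga1, Itga2, Itga5 and Itga6) and 1, Itgb6, was higher. With library size only the shares of all genes tested were 5.73% lower and 11.6% higher, and those of genes with a mean log2 CPM over 3 were 9.81% and 9.96%, beside 4 (18.2%) and 0 of the 22 members. The median log2 fold change of the 31 was -0.03, beside 0.01 over all genes tested and -0.03 over genes with a mean log2 CPM over 3. With library size only these 3 medians all moved up, to 0.02 for the members, 0.05 for all genes tested and 0.01 for genes at that level.

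DESeq2, run as an alternative, called 4 members at an adjusted p under 0.05, all lower: Itga5, Itga2, Itga6 and Itga1. It called 4.16% of the genes to which it gave an adjusted p as lower and 1.98% as higher, 6.14% in all. Of genes with a mean log2 CPM over 3 it called 6.58% as lower, beside 4 (18.2%) of the 22 members at that level. The robust edgeR fit called Itga5 alone among the members.

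**Figure D3:**
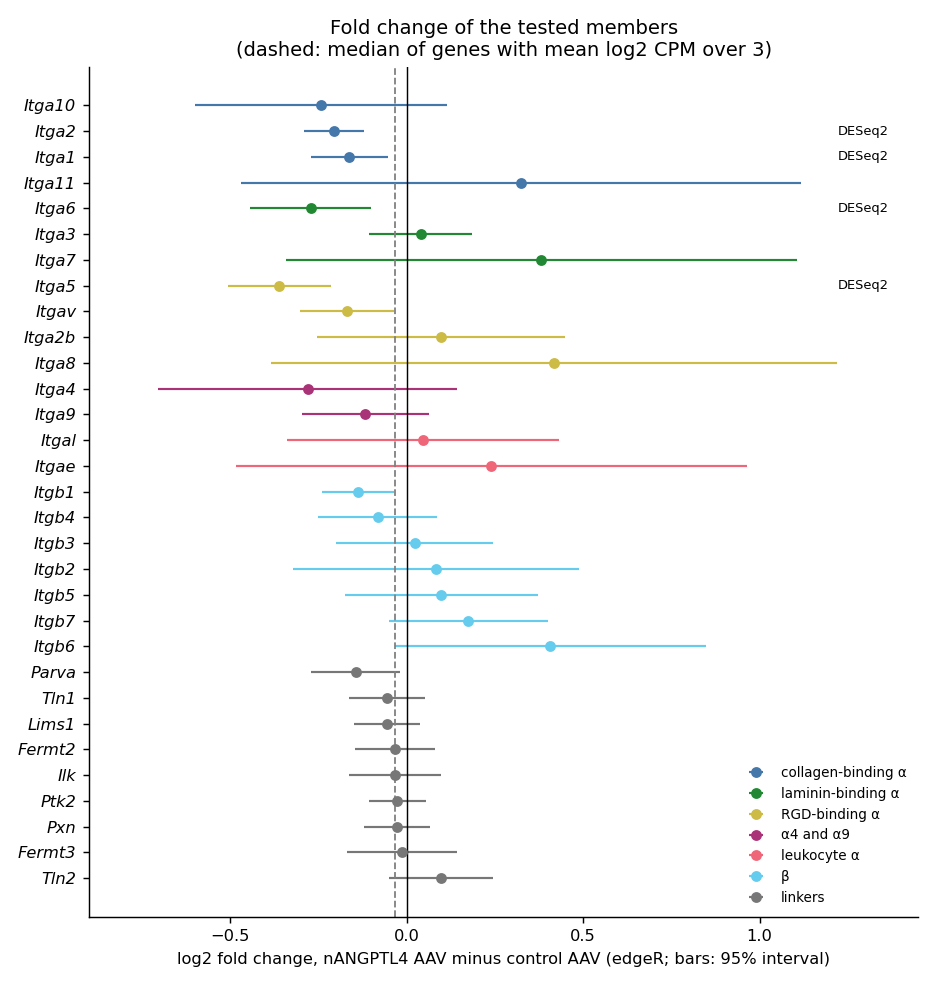
Log2 fold change of the 31 tested members, nANGPTL4 AAV minus control AAV, with the 95% interval from the edgeR fit; colours give the role, the dashed line is the median of genes with a mean log2 CPM over 3 (-0.03), and the word DESeq2 marks the 4 members that tool called. The interval of Itga5, -0.51 to -0.21, has the lowest upper end, while those of Itga4 and Itga10 reach lower but cross 0, and the intervals of the linkers other than Parva cross 0.

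Itga5 forms the classical fibronectin receptor with Itgb1. Itga5 was at 272, 336, 278 and 284 CPM in control AAV libraries 1 to 4 and at 230, 226, 219 and 237 CPM in nANGPTL4 AAV libraries 1 to 4. The groups did not overlap, and control AAV library 2 was the highest of all. The log2 fold change was -0.36 (SE 0.07, 95% interval -0.51 to -0.21), a level 0.779 times that of control AAV, with an edgeR adjusted p of 0.0642. Over 17 alternative fits the value stayed between -0.39 and -0.28 and the adjusted p between 0.000441 (DESeq2) and 0.174.

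Itga2 and Itga1 are alpha chains of the collagen receptors. Itga2 was at 89.98, 86.2, 87.9 and 86.1 CPM in control AAV libraries 1 to 4 and at 77.4, 73.4, 77.9 and 75.0 CPM in nANGPTL4 AAV libraries 1 to 4. Both groups were narrow, with coefficients of variation of 2.07% and 2.80%, and they did not overlap. The log2 fold change of Itga2 was -0.21 (SE 0.04, edgeR adjusted p = 0.0642), and DESeq2 gave the smallest adjusted p of its alternative fits, in a range of 0.000614 to 0.203. Itga1 was at 1032, 1090, 986 and 1075 CPM in control AAV and at 976, 944, 885 and 933 CPM in nANGPTL4 AAV, in the order of the libraries. Its groups did not overlap either, but control AAV library 3 (986 CPM) and nANGPTL4 AAV library 1 (976 CPM) were close, and the groups overlapped with library size only. The log2 fold change of Itga1 was -0.16 (SE 0.05, edgeR adjusted p = 0.135), with adjusted p-values of 0.0498 (DESeq2) to 0.333 over the alternative fits. The other collagen chains were scarce, Itga10 at 0.866 ± 0.0361 and 0.733 ± 0.120 CPM and Itga11 at 0.222 ± 0.0928 and 0.281 ± 0.101 CPM. Itga10 also lay lower in every nANGPTL4 AAV library with TMM scaling, though not with library size only, with an edgeR adjusted p of 0.471, and 33.5% of its exonic bases overlap another gene on the same strand, so its counts are less certain.

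Itga1 and Itga2 are neighbours on the minus strand of chromosome 13 (mm10). Itga2 spans 114833081 to 114932100 and Itga1 spans 114953096 to 115101964, with 20995 bases between them, in the GENCODE M21 annotation. Only the pair Itgam and Itgax on chromosome 7 lies closer among the members, 11055 bases apart. Itga5 lies on chromosome 15 at 103344286 to 103366763, minus strand, and Itgb1 on chromosome 8 at 128685654 to 128733200, plus strand. One count is given for each gene, which leaves its exons and isoforms unresolved.

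The 250 bases before the RefSeq start of Itga5, Itga2, Itga1 and Itgb1 are shown because, of the 7 members with an unadjusted p under 0.05, these are the 4 without overlap between the groups on the TMM scale; the first 3 are alpha partners of the last. RefSeq's promoter table (GRCm38.p6) held 23 of the 34 members; Itga6 and Parva had no entry. Capitals mark the GC box GGGCGG, the site of the SP and KLF family of factors, on either strand. The regions are chr15:103366792-103367041 (minus strand) for Itga5, chr13:114932101-114932350 (minus strand) for Itga2, chr13:115101965-115102214 (minus strand) for Itga1 and chr8:128685404-128685653 (plus strand) for Itgb1.
Itga5: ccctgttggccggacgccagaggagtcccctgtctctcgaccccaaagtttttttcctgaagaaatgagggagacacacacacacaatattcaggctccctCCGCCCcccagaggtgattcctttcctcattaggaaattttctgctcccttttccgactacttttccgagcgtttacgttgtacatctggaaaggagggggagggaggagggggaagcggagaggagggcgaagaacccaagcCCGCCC
Itga2: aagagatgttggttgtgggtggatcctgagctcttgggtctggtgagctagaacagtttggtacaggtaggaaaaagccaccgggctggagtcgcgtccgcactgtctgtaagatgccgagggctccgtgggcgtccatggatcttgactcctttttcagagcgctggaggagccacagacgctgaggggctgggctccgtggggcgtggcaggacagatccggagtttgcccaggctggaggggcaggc
Itga1: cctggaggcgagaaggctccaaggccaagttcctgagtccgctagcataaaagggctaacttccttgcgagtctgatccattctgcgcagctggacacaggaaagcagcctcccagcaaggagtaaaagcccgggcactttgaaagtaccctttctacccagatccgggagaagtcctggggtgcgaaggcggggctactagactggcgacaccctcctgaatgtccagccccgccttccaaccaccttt
Itgb1: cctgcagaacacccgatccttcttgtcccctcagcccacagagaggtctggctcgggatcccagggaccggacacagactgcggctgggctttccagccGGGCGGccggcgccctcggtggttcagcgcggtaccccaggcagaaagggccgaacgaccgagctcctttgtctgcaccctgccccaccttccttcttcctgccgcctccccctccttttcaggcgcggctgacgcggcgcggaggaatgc

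The GC box occurred 2 times before Itga5 and 1 time before Itgb1, and did not occur in the windows of Itga2 and Itga1, where 32.7% of 32851 promoters of the same length hold it. The ETS core CCGGAA (12.0% of promoters), the AP-1 site TGANTCA (6.75%) and the TATA box TATAAA (12.4%), each searched on both strands, were in none of the 4 windows. The GC box alone had matches in these windows, so no match overlaps one of another motif. GC content was 55.6% for Itga5, 60.8% for Itga2, 57.6% for Itga1 and 68.0% for Itgb1, beside a median of 52.4% over all promoters. These matches describe the letters only.

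Itga6 and Itga3 are the main alpha chains of laminin receptors. Itga6 was at 699, 688, 754 and 572 CPM in control AAV libraries 1 to 4 and at 577, 536, 536 and 598 CPM in nANGPTL4 AAV libraries 1 to 4. Control AAV library 4 lay within the range of the other group, so the groups overlapped, while the other 3 control AAV libraries were above all of it. The log2 fold change of Itga6 was -0.27 (SE 0.08, edgeR adjusted p = 0.120), and the alternative fits gave adjusted p-values of 0.0348 (DESeq2) to 0.290. Itga3 did not share this pattern: it was at 597, 572, 605 and 659 CPM in control AAV and 600, 644, 686 and 569 CPM in nANGPTL4 AAV. Its groups overlapped fully, with a log2 fold change of 0.04 and a 95% interval of -0.11 to 0.18 (edgeR adjusted p = 0.801). That the interval of Itga6 was -0.44 to -0.10 does not test the difference between the 2 genes. The muscle laminin receptor chain Itga7 was at 0.308 ± 0.119 and 0.405 ± 0.127 CPM, and Itgb4, the beta chain that pairs with Itga6 in hemidesmosomes, was at 29.9 ± 2.07 and 28.2 ± 2.83 CPM.

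Itgb1 itself was at 1060, 1131, 1035 and 1029 CPM in control AAV libraries 1 to 4 and at 975, 938, 956 and 1001 CPM in nANGPTL4 AAV libraries 1 to 4. All 4 nANGPTL4 AAV libraries were lower, although control AAV library 4 and nANGPTL4 AAV library 4 were close and changed order with library size only. The log2 fold change was -0.14 (SE 0.05, 95% interval -0.24 to -0.03), the edgeR adjusted p was 0.1697, and no alternative fit called it, at adjusted p-values of 0.0840 to 0.410. With library size only the value was -0.09.

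**Figure D4:**
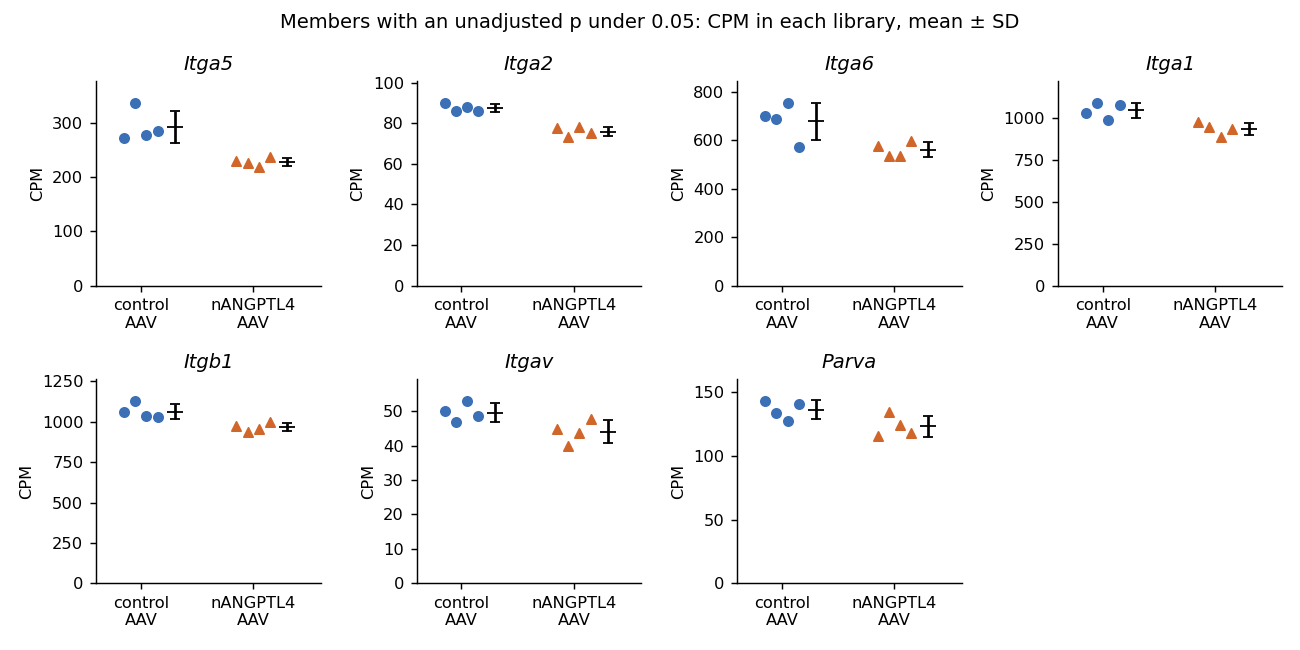
CPM in each library for the 7 members with an unadjusted p under 0.05 (circles, control AAV; triangles, nANGPTL4 AAV), with the mean and SD of each group; every axis starts at 0. On this TMM scale Itga5, Itga2, Itga1 and Itgb1 do not overlap between the groups, and Itga6, Itgav and Parva do; with library size only Itga1 and Itgb1 overlap too.

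Itgav, the alpha chain of the vitronectin receptors and of the receptors that activate latent TGF-beta, was at 49.96, 46.7, 53.0 and 48.4 CPM in control AAV libraries 1 to 4 and at 44.9, 39.9, 43.7 and 47.8 CPM in nANGPTL4 AAV libraries 1 to 4. The groups overlapped by a small margin, and the log2 fold change was -0.17 (SE 0.06, edgeR adjusted p = 0.186). Besides Itgb1, described above, its beta partners are Itgb3, Itgb5, Itgb6 and Itgb8. Itgb5 was at 219, 204, 194 and 244 CPM in control AAV and 193, 209, 299 and 220 CPM in nANGPTL4 AAV, a wide overlap in which nANGPTL4 AAV library 3 stood highest. Its log2 fold change was 0.10 (SE 0.12, edgeR adjusted p = 0.722) and lay between -0.04 and 0.18 over the alternative fits. Itgb3 was at 28.5 ± 4.05 and 29.0 ± 2.84 CPM, Itgb6 at 1.05 ± 0.313 and 1.39 ± 0.161 CPM, and Itgb8 had 0 to 11 counts per library and was not tested. Per kb of exon the beta partners of Itgav stood at 249 CPM for Itgb1, 62.6 for Itgb5, 4.88 for Itgb3, 0.171 for Itgb6 and 0.0060 for Itgb8. Itga4 and Itga9, chains of receptors for VCAM1 and other ligands, were at 3.602 ± 0.821 and 2.97 ± 0.693 CPM and at 34.7 ± 3.73 and 32.0 ± 2.54 CPM. Neither was called, with edgeR adjusted p-values of 0.483 and 0.496.

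Of the 9 linkers Parva alone had an unadjusted p under 0.05. The kindlin Fermt2 was at 327, 298, 346 and 315 CPM in control AAV libraries 1 to 4 and at 324, 310, 306 and 318 CPM in nANGPTL4 AAV libraries 1 to 4. The talin Tln1 was at 560, 618, 583 and 610 CPM and at 578, 596, 567 and 542 CPM. Both overlapped between the groups, with 95% intervals of the log2 fold change of -0.15 to 0.08 for Fermt2 and -0.16 to 0.05 for Tln1. FAK (Ptk2) stood out by its narrow spread on the TMM scale. It was at 340.2, 339.8, 339.6 and 341.7 CPM in control AAV and at 333.7, 329.2, 335.2 and 338.7 CPM in nANGPTL4 AAV, with coefficients of variation of 0.283% and 1.17%. The narrowness in control AAV depends on the scaling: with library size only those libraries were at 329.6, 336.0, 337.6 and 337.8 CPM. With TMM scaling every nANGPTL4 AAV library was lower, but by a log2 fold change of only -0.03 (SE 0.04, edgeR adjusted p = 0.756), which turned to 0.02 with library size only.

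Parva, the actin-binding parvin of the ILK complex, was at 143, 133, 127 and 141 CPM in control AAV libraries 1 to 4 and at 116, 135, 124 and 118 CPM in nANGPTL4 AAV libraries 1 to 4. nANGPTL4 AAV library 2 lay among the control values, and the log2 fold change was -0.14 (SE 0.06, edgeR adjusted p = 0.227). The PINCH protein Lims1 was at 157 ± 3.19 and 151 ± 6.38 CPM and paxillin (Pxn) at 410 ± 14.1 and 402 ± 8.89 CPM. The scaffold Ilk was at 13.5 ± 0.669 and 13.2 ± 0.324 CPM, but 76.8% of its exonic bases overlap Taf10 on the other strand, so its counts are uncertain. Of the 9 linkers 8 had negative values with TMM scaling, against 62.5% of genes with a mean log2 CPM over 3, and 3 had them with library size only, against 46.4% of those genes. The second talin, Tln2, was scarce at 30.3 ± 2.59 and 32.4 ± 1.52 CPM. Per kb of exon Tln1 was 37.0 ± 4.50 times Tln2 in control AAV and 33.0 ± 1.05 times in nANGPTL4 AAV. This ratio depends on the length used. Over the 8 libraries the means of Tln1 and Tln2 were 59.4 and 1.71 CPM per kb of exon, and 69.3 and 2.58 CPM per kb of the longest transcript.

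Several members are known from blood cells and stromal cells, though not only from them, and they were read beside markers of those cells. Itgb3 is also a partner of Itgav, as described above. Itga2b and Itgb3 form the fibrinogen receptor of platelets, and Fermt3 is the kindlin of blood cells. Itga2b was at 22.4, 44.2, 35.0 and 31.9 CPM in control AAV libraries 1 to 4 and at 37.9, 36.4, 36.9 and 31.7 CPM in nANGPTL4 AAV libraries 1 to 4. Its lowest and highest libraries were both control AAV, numbers 1 and 2. The 10 platelet and megakaryocyte markers summed to 65.1, 109, 90.4 and 88.3 CPM in control AAV and to 100, 99.9, 103 and 98.7 CPM in nANGPTL4 AAV, with the same 2 libraries at the ends. All 10 had positive log2 fold changes (median 0.20), 0 were called by edgeR and 1, Clec1b, was higher at an unadjusted p under 0.05. Clec1b was higher in every nANGPTL4 AAV library and was called by DESeq2 (adjusted p = 7.66e-05). Fermt3 was at 31.1 ± 2.72 and 30.8 ± 2.04 CPM, with a ratio of Fermt2 to Fermt3 per kb of exon of 11.6 ± 1.58 and 11.4 ± 1.07. This ratio too depends on the length used. Over all libraries the means of Fermt2 and Fermt3 were 61.2 and 5.35 CPM per kb of exon, and 96.5 and 10.4 CPM per kb of the longest transcript.

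Across the 8 libraries, 7 relations between a member and a marker list were computed, chosen after the values were seen. The p-values do not allow for that choice, and the permutation mixed the libraries of both groups. They are given as a description and do not measure chance. Itga2b followed the platelet sum with a Pearson r of 0.926 (exact permutation p = 0.00288, adjusted p = 0.0135) and a Spearman rho of 0.905 (exact permutation p = 0.00456, adjusted p = 0.0319), and r was 0.741 without the 2 libraries farthest from the median. Itga8, an alpha chain of stromal cells, followed the summed fibroblast and mural markers with r = 0.865 (exact permutation p = 0.00665, adjusted p = 0.0155) and rho = 0.857 (exact permutation p = 0.0107, adjusted p = 0.0359), and r was 0.759 without 2 libraries. Itgb2, the shared beta chain of leukocytes, followed the pan-leukocyte sum with r = 0.760 (exact permutation p = 0.00387, adjusted p = 0.0135) and rho = 0.833 (exact permutation p = 0.0154, adjusted p = 0.0359), and r dropped to 0.530 without 2 libraries. Each point of these relations is a library, and each group of 4 is too small for a value of its own. For Itgb3 and Fermt3 beside the platelet sum, Itgal beside lymphocyte markers and Itgb6 beside epithelial markers, r was between 0.348 and 0.721 and no adjusted p was under 0.05 (exact permutation, range 0.0689 to 0.434). Without 2 libraries r was 0.323 for Itgb3, 0.762 for Fermt3, -0.05 for Itgal and 0.360 for Itgb6. The value for Fermt3 was then above those of Itga2b, Itga8 and Itgb2, so the relations are not sharply divided.

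**Figure D5:**
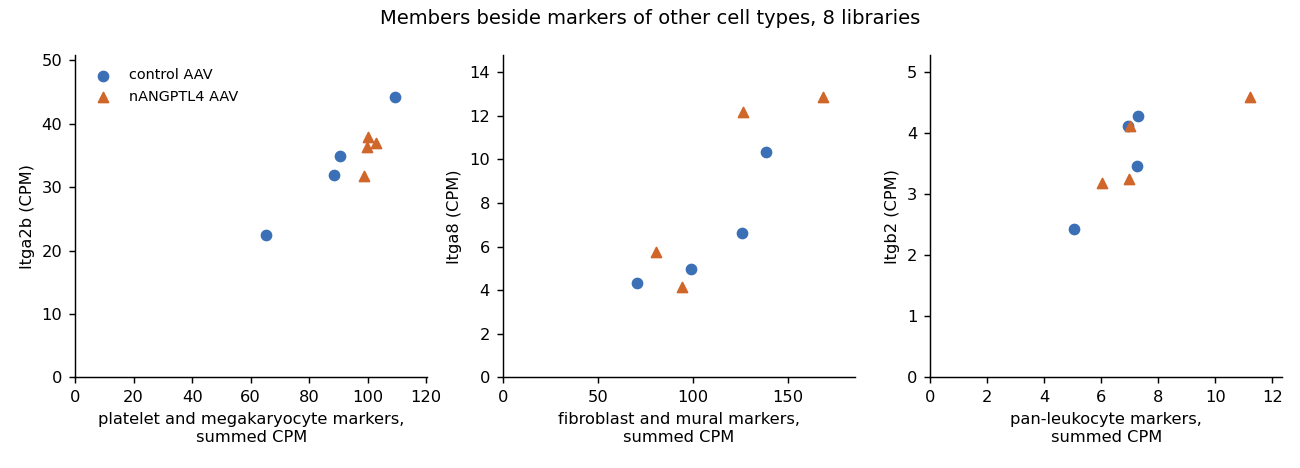
CPM of Itga2b, Itga8 and Itgb2 (vertical axes) against the summed CPM of markers of platelets and megakaryocytes, of fibroblasts and mural cells, and of all leukocytes (horizontal axes), with 1 symbol per library. Control AAV library 1 has the lowest platelet sum, 65.1 CPM, and the lowest Itga2b, 22.4 CPM.

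Itga8 was at 4.33, 6.61, 10.3 and 4.99 CPM in control AAV libraries 1 to 4 and at 4.16, 12.8, 5.78 and 12.2 CPM in nANGPTL4 AAV libraries 1 to 4. Its log2 fold change of 0.42 had an SE of 0.36 (edgeR adjusted p = 0.593), the largest SE of the 31 tested members. The fibroblast and mural sum was 70.6 to 139 CPM in control AAV and 80.6 to 168 CPM in nANGPTL4 AAV. Of its 14 markers 6 had positive and 8 negative log2 fold changes, with a median of -0.06. What stromal or platelet RNA contributes to these members was not tested.

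Of the leukocyte integrins, Itgam and Itgax were close to the limit of detection. Itgal had 274 to 529, Itgb2 221 to 484 and Itgb7 685 to 1255 counts per library. Itgam, of macrophages and neutrophils, had 1 to 6 counts per library and Itgax, of dendritic cells and macrophages, had 0 to 13, and neither was tested. Of the exonic bases of Itgam 68.7% overlap the gene model Gm49368 on the same strand, so its counts are less certain. Itgal and Itgb2, which form the leukocyte receptor LFA-1, were at 3.67 ± 0.935 and 3.79 ± 0.490 CPM and at 3.57 ± 0.841 and 3.78 ± 0.679 CPM. Itgb7, a partner of Itga4 and Itgae, was at 9.44 ± 1.37 and 10.7 ± 0.706 CPM, and Itgae, of intraepithelial lymphocytes, at 0.266 ± 0.103 and 0.311 ± 0.0947 CPM. The general leukocyte gene Ptprc was at 0.265 to 0.691 CPM in control AAV and 0.476 to 1.17 CPM in nANGPTL4 AAV. All 4 pan-leukocyte and all 6 tested lymphocyte markers had positive log2 fold changes, with medians of 0.54 and 0.85. Of these 0 were called by edgeR or DESeq2, and 1 and 5 were higher at an unadjusted p under 0.05. Of the 15 myeloid markers 6 were tested, 4 of them positive. Among these Cd68 was higher in every nANGPTL4 AAV library (4.79 ± 0.398 and 6.57 ± 0.607 CPM), with an adjusted p of 0.0718 by edgeR and 0.000953 by DESeq2, which called it. Itgal, Itgae, Itgb2 and Itgb7 were positive too, at 0.05, 0.24, 0.08 and 0.18, without passing, and Itga4 was negative at -0.28. The sign turned in 3 alternative fits for Itgal and in 2 for Itgb2. Of the 18874 genes tested 9860 were positive. The part of leukocyte RNA in these values was not tested.

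Other genes of the pathway were read from 3 lists. Of 37 tested partners at adhesion sites 0 were called by edgeR and 5 by DESeq2, all lower. DESeq2 called 4.16% of genes as lower and 1.98% as higher, and 6.58% of genes with a mean log2 CPM over 3 as lower. At an unadjusted edgeR p under 0.05, 11 were lower and 3 higher, against 10.3% and 7.35% of all genes tested. Of genes with a mean log2 CPM over 3, 18.2% were lower and 4.26% higher. In 7 of the 37 every nANGPTL4 AAV library was lower and in 1 every one was higher. The shares were 7.00% and 3.89% of all genes tested and 12.6% and 2.21% of genes with that mean. The 3 with the smallest p all had lower values in every nANGPTL4 AAV library: the phosphatase Ptpn12, which acts on adhesion proteins, with 74.2 ± 4.98 and 60.6 ± 3.35 CPM; the tensin Tns2, which binds beta tails, with 689 ± 49.7 and 550 ± 40.4; and the adhesion adaptor Fblim1 (migfilin) with 11.7 ± 1.13 and 8.86 ± 0.624 CPM. Their log2 fold changes were -0.29, -0.33 and -0.40, and their edgeR adjusted p-values were 0.0656 to 0.0718. The median of this list was -0.06, beside -0.03 over genes with a mean log2 CPM over 3 and 0.01 over all genes tested. With library size only these medians were -0.02, 0.01 and 0.05. With library size only 9 were lower and 3 higher at an unadjusted edgeR p under 0.05. The shares were then 5.73% and 11.6% of all genes tested, and 9.81% and 9.96% of genes with a mean log2 CPM over 3.

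Of 24 regulators and lateral partners of integrins 0 were called by edgeR and 1, Rasgrp3, by DESeq2 (lower, adjusted p = 0.0487). DESeq2 called 4.16% of genes as lower and 1.98% as higher, and 6.58% of genes with a mean log2 CPM over 3 as lower. At an unadjusted edgeR p under 0.05, 6 were lower and 0 higher, against 10.3% and 7.35% of all genes tested. Of genes with a mean log2 CPM over 3, 18.2% were lower and 4.26% higher. The 4 with the smallest p were Rasgrp3, Krit1, Cd81 and Rap1a. The RAP1 exchange factor Rasgrp3 was at 361 ± 18.7 and 317 ± 19.6 CPM. Krit1, which binds the integrin inhibitor ICAP1, was at 58.2 ± 3.65 and 51.6 ± 2.01 CPM. The tetraspanin Cd81 was at 138 ± 6.72 and 121 ± 10.7 CPM, and the small GTPase Rap1a at 135 ± 8.44 and 122 ± 4.67 CPM. The log2 fold changes of these 4 lay between -0.19 and -0.14, with edgeR adjusted p-values of 0.128 to 0.190. The median of this list was -0.04, beside -0.03 over genes with a mean log2 CPM over 3 and 0.01 over all genes tested. With library size only these medians were 0.01, 0.01 and 0.05. With that scaling 2 were lower and 1 higher at an unadjusted edgeR p under 0.05. The shares were then 5.73% and 11.6% of all genes tested, and 9.81% and 9.96% of genes with a mean log2 CPM over 3.

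Of 31 tested ligands 0 were called by edgeR and 1, Fbln5, by DESeq2 (lower, adjusted p = 0.00860). DESeq2 called 4.16% of genes as lower and 1.98% as higher, and 6.58% of genes with a mean log2 CPM over 3 as lower. At an unadjusted edgeR p under 0.05, 3 ligands were lower and 0 higher, against 10.3% and 7.35% of all genes tested. The 3 were Fbln5, an elastic fibre protein with an RGD site, at 70.6 ± 5.93 and 54.4 ± 6.85 CPM (log2 fold change -0.38, edgeR adjusted p = 0.0876), the laminin chain Lama4 of vascular basement membrane at 37.5 ± 7.46 and 29.0 ± 4.14 CPM (-0.37, edgeR adjusted p = 0.211), and Edil3 at 124 ± 4.05 and 113 ± 9.39 CPM (-0.13, edgeR adjusted p = 0.270). Fbln5 did not overlap between the groups, and the other 2 did. Every nANGPTL4 AAV library was lower in 1 of the 31 ligands and higher in 0, against 7.00% and 3.89% of all genes tested. Of genes with a mean log2 CPM over 3, 18.2% were lower and 4.26% higher at an unadjusted edgeR p under 0.05. The list's median was -0.04, beside -0.03 over genes with a mean log2 CPM over 3 and 0.01 over all genes tested. With library size only these medians were 0.01, 0.01 and 0.05. With that scaling 2 ligands were lower and 0 higher at this p, against 5.73% and 11.6% of all genes tested.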

How the data were processed

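The deposited table holds whole-number read counts per Ensembl gene in 8 libraries, not normalized, as deposited by the authors. The submitters' processing notes name the build mm10. Aligner, counter, strand setting and annotation are not given in the sources used here. Per the labels' protocols, libraries were made with a SMARTer ultra low input kit. Symbols (31491 of 31610 identifiers matched without version), exon lengths and overlaps came from GENCODE M21 on the same build.

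Counts were fitted with edgeR 4.0.16 (R 4.3.3): filterByExpr with a minimum count of 10, TMM scaling, and the quasi-likelihood F test with group as the only term on all 18874 genes that passed, with Benjamini-Hochberg adjustment. Alternatives were other scalings and filters, a robust fit, DESeq2 1.42.0, limma-voom (limma 3.58.1), a replicate block and leaving out each library. The fits were tested on simulated counts.

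All 34 members are named. Values in every library are given for members with an unadjusted p under 0.05 and for the 6 highest per kb, and for Ptk2, Itga2b and Itga8, chosen after their values were seen. From each pathway list up to 4 genes with the smallest p are named. One gene that this rule names is not reported here. The members, role groups, pathway lists and marker lists were chosen with earlier results of these data known.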

Additional observations from a re-analysis of the deposited data

Results flagged for a closer look

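In 62 groups of 4 libraries (31 tested members in 2 groups), 4 held a highest or lowest library whose gap to its nearest neighbour, as a share of the group's range, was above Dixon's 95% critical value, where chance gives about 1 group in 20. Fermt3 in control AAV library 2 was at 35.1 CPM, with the other 3 at 29.3 to 30.04 CPM. Itgb3 in nANGPTL4 AAV library 2 was at 33.2 CPM, with the others at 27.1 to 28.1 CPM. Itga10 had such a lowest library in both groups, at 0.812 CPM in control AAV library 1 (others 0.883 to 0.885) and at 0.556 CPM in nANGPTL4 AAV library 3 (others 0.770 to 0.811).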

How the results depend on the processing

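Of the 31 tested members 21 kept the sign of their fold change in every alternative fit that tested them (17 at most) and 10 did not (Itga2b, Itgal, Itgb2, Itgb3, Itgb5, Fermt2, Fermt3, Ilk, Ptk2 and Pxn), none of which had an unadjusted p under 0.05. Members called numbered 0 in the edgeR fit, 4 with DESeq2, 1 with the robust fit and 2 at an adjusted p under 0.1, and 0 in the other fits run. The 7 members lower at an unadjusted p under 0.05 were the same genes with DESeq2, limma-voom, RLE scaling, both other filters and the robust fit. They became 4 lower and 1 higher with upper quartile scaling or library size only, where the median of the members turned to 0.0136 and 0.0172. The medians over all genes tested were then 0.0488 and 0.0522, and those over genes with a mean log2 CPM over 3 were 0.00579 and 0.00941. Leaving out 1 library left 5 or 6 of the 7 lower members, and 1 or 2 higher members (Itgb6 without nANGPTL4 AAV library 2; Itgb6 and Itgb7 without control AAV library 4) or 0. Genes called over the whole table numbered 26, and 4 with upper quartile scaling, 4 with library size only, 17 with a minimum count of 50, 59 with the robust fit, 956 with DESeq2, 471 at an adjusted p under 0.1, and 1 to 2 with a library left out; the cause was not tested. The labels give no pairing of the libraries by replicate number. Same-numbered libraries deviated from their group means with r of 0.16, 0.14, -0.25 and -0.38. With 4 libraries per group these values cannot exclude a pairing. With the replicate block 6 genes were called, 0 of them members, and 6 members were lower at an unadjusted p under 0.05, without Parva. Members under 1 CPM rest on few counts: the SE of the log2 fold change was 0.16 for Itga10 and 0.33 to 0.36 for Itga7, Itgae and Itga11, beside 0.07 for Itga5.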
